A study of Mus musculus with 19 samples.

Results

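Mouse hippocampal neurons treated with AP5 were compared with mouse hippocampal neurons treated with Ro25, gene by gene, on the 5 arrays whose titles name AP5 and the 5 whose titles name Ro25, which are 10 of the 19 arrays of the series. The series title asks what basal NMDA receptor activity does for neuronal gene expression and survival, and it names histone deacetylase 4. Dissociated neurons were used after 21 days in culture and were left for 6 h with 100 µM AP5, with 1 µM of the compound that the treatment label spells Ro25-4891, with 100 nM NVP-AAM077 (NVP, 4 arrays) or with vehicle (5 arrays). A widely used GluN2B antagonist has a name that starts the same way but carries another number, so which substance this label means was not settled here. The doses of AP5 and Ro25 differed, so compound and dose cannot be told apart in any difference given here. On every array the neuron RNA was labelled with Cy5 (red) and a universal mouse reference RNA with Cy3 (green). Each level is the log2 ratio of red over green, and each difference is AP5 minus Ro25 on that log2 scale. The labels do not say whether replicates came from separate cultures, so a p-value here reflects how much these samples vary, and that variation could be purely technical.

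NMDA receptors are glutamate-gated channels made of the obligatory GluN1 subunit (gene Grin1) and GluN2 or GluN3 subunits, and they let calcium into the neuron. Calcium entry through them activates kinases, among them the ERK pathway and CaM kinases, that act on transcription factors such as CREB and on class IIa histone deacetylases, which leave the nucleus when phosphorylated. Transcription of immediate early genes, of the neurotrophin Bdnf and of genes that hold back apoptosis is known to follow this route in hippocampal neurons. AP5 competes with glutamate at the receptor whichever GluN2 subunit it holds.

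The groups differed in 1164 of 19220 genes tested (6.06%; limma, Benjamini-Hochberg adjusted p below 0.05), of which 789 were higher with AP5 (4.11%) and 375 lower (1.95%). Of these, 137 differed by at least 1.5-fold (0.713% of the genes tested), 85 of them higher and 52 lower with AP5. Only 19 genes reached 2-fold, 8 higher and 11 lower, and Icosl alone reached 3-fold. The 5 AP5 arrays and the 5 Ro25 arrays did not overlap for 1314 genes (6.84%), among them 916 of the 1164 called genes and 125 of the 137. The median difference over all genes was 0.01, its median standard error 0.08 and the median distance from the difference to either end of its 95% interval 0.16.

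The 2 groups shared no slide. AP5 1 to 4 were on slide 1 and AP5 5 was on slide 2 with 2 NVP arrays, while Ro25 1 and 4 were on slide 3 with 2 NVP arrays and Ro25 2, 3 and 5 on slide 4 with 1 vehicle array. Arrays of 1 slide also shared a scan time, and no value of AP5 against Ro25 within a slide can be given. A model with slide as a fixed block links the groups only through the NVP arrays. It takes AP5 from AP5 5 alone and Ro25 from Ro25 1 and 4 alone, each set against the NVP arrays of the same slide. Ro25 2, 3 and 5 and the vehicle arrays do not enter its estimate of the difference. In this model 44 genes whose missing spots broke that link, 36 of them missing on AP5 5, got no value. In it the median standard error was 0.18 and 20 genes were called. Of the called genes it could estimate, 1084 of 1160 had the same direction, and 130 of 134 of those at 1.5-fold. With slide as a random block 1740 genes were called, all of the 1164 included. The correlation within slides was estimated there as negative (-0.078), and the median standard error was 0.068, against 0.075 without a block. The random block therefore does not remove slide differences between the groups, and the calls it keeps say nothing about slide. The reference RNA was the same on every array, yet in the green channel by itself 1037 genes (5.4%) differed between AP5 and Ro25 arrays, among them 85 of the 1164 called genes and 25 of the 137.

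**Figure D1:**
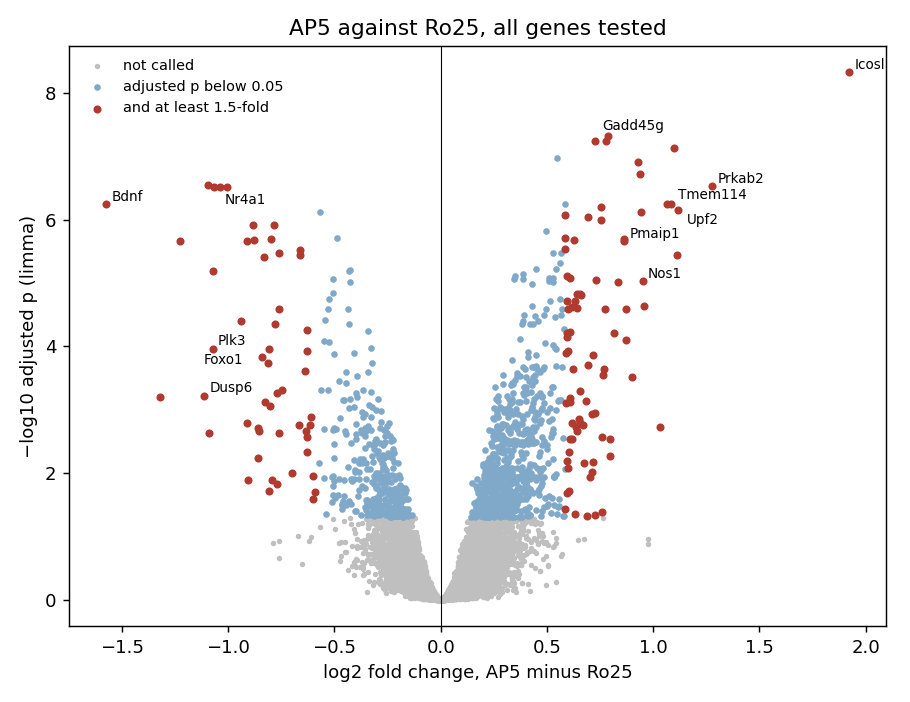
Each point is 1 of the 19220 genes tested, with the log2 fold change (AP5 minus Ro25) on the horizontal axis and −log10 of the limma adjusted p on the vertical axis. Red points are the 137 genes called at 1.5-fold or more, blue points the other called genes and grey points those not called; Icosl stands farthest to the right and Bdnf farthest to the left.

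Both groups were also compared with vehicle, and all comparisons with vehicle share those arrays. Vehicle 1, 3, 4 and 5 were on slide 5 and vehicle 2 was on slide 4. AP5 thus shared no slide with vehicle, so slide and treatment cannot be told apart in that comparison, while Ro25 shared slide 4. Against vehicle, AP5 differed in 3472 genes (18.1%) and Ro25 in 0 genes (0%) by limma. For Ro25 1183 genes had an unadjusted p below 0.05, which is 6.16% of those tested, and the lowest adjusted p was 0.323. A fit to the 10 Ro25 and vehicle arrays alone also called 0 genes, with 904 at an unadjusted p below 0.05. For Ro25 minus vehicle that median distance to either end of the interval was 0.16, without adjustment for the number of genes. A call after adjustment takes a larger difference: Nr4a1 at -0.41 (adjusted p = 0.323) and Dusp6 at -0.39 (adjusted p = 0.795) were not called. The 0 calls therefore do not show that Ro25 left these genes unchanged. Of the 85 genes higher with AP5 than with Ro25, the median was 0.81 above vehicle with AP5 and 0.10 above vehicle with Ro25. Of the 52 lower genes, the medians were -0.93 with AP5 and -0.12 with Ro25. For all 137 the vehicle mean lay nearer to the Ro25 mean than to the AP5 mean.

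Promoter sequence is shown for 4 genes picked after their values were seen: Bdnf, Nr4a1 and Dusp6 belong to activity-regulated groups described below, and Icosl had the largest difference of all. Each line gives the 250 bases before a gene's RefSeq transcription start on the plus strand of GRCm38.p6, 5′ to 3′, with capitals marking the core of the cAMP response element, TGACG or its reverse complement CGTCA. The stretches are chr2:109692186-109692435 for Bdnf (of its 7 listed starts, the one whose window held the most cores), chr15:101266596-101266845 for Nr4a1, chr10:99262981-99263230 for Dusp6 and chr10:78069118-78069367 for Icosl.
Bdnf: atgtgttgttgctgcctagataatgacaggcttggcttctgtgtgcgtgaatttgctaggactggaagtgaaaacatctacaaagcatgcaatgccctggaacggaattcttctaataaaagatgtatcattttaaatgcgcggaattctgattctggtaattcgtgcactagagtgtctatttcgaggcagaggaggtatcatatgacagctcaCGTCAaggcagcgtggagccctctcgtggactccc
Nr4a1: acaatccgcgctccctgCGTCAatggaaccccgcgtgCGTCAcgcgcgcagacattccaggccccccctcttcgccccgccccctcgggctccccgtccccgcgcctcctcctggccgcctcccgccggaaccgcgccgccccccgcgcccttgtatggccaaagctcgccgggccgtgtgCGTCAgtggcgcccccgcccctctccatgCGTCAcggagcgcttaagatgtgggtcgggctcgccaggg
Dusp6: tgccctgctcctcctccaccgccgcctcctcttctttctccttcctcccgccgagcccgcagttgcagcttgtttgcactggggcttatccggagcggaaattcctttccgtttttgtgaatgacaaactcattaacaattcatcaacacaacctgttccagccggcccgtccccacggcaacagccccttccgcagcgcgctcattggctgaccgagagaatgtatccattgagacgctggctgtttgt
Icosl: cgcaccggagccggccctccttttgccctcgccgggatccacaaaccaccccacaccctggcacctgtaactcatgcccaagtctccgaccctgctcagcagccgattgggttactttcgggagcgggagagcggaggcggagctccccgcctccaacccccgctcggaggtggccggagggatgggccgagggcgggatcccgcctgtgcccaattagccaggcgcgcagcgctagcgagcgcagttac
The Nr4a1 stretch held 4 such cores and the Bdnf stretch 1, while those of Dusp6 and Icosl held 0. A window of 250 bases before to 50 after a start was listed for 12694 of the genes tested. On either strand, 18 of the 40 genes with a window that were at least 1.5-fold lower with AP5 held this core (45%), against 16 of the 66 higher genes (24.2%) and 4038 of the 12694 (31.8%). The full element TGACGTCA, which contains the core on both strands, was in the windows of 0 of the 40, 1 of the 66 (1.52%) and 405 of the 12694 (3.19%). The AP-1 motif TGANTCA was in 4 of the 40 (10%), 2 of the 66 (3.03%) and 883 of the 12694 (6.96%), and the EGR motif GCGNGGGCG in 7 (17.5%), 6 (9.09%) and 1404 (11.1%). The CArG box was in 1 of the 40 (2.5%), 4 of the 66 (6.06%) and 1.63% of the 12694, and the MEF2 site in 2 (5%), 2 (3.03%) and 2.49%. Of all 32851 listed windows, 20.8% held the core. Genes with several listed starts had more than 1 window, and these matches describe letters and not bound sites.

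Bdnf, Nr4a1, Dusp6 and Plk3, genes known to be transcribed in response to synaptic activity, were among the 10 largest differences on the lower side that had an official gene symbol. Bdnf, brain-derived neurotrophic factor, had log2 ratios of 0.83, 0.44, 0.49, 0.50 and 1.09 on AP5 1 to 5 and of 2.40, 2.16, 2.49, 2.09 and 2.07 on Ro25 1 to 5. Every AP5 array was thus below every Ro25 array by a wide margin, with AP5 5 the nearest. The difference was -1.57 (SE 0.13, 95% interval -1.86 to -1.29, adjusted p = 5.74e-07), or 2.98-fold, and the other Bdnf probe gave -1.63. Its probe lies at chr2:109524885-109524944 in the mm8 assembly, the build of the probe positions in the files. With vehicle Bdnf was at 2.46 ± 0.23 (SD, n = 5), and Ro25 was at 2.24 ± 0.19 (SD, n = 5; Ro25 minus vehicle -0.21, adjusted p = 0.931).

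Nr4a1, an orphan nuclear receptor and immediate early gene (probe at chr15:101102674-101102733, mm8), was at -2.55, -2.32, -2.37, -2.62 and -2.45 with AP5 and at -1.32, -1.54, -1.36, -1.38 and -1.50 with Ro25. The groups did not overlap, and neither reached the vehicle mean of -1.01 ± 0.19 (SD, n = 5). The difference was -1.04 (SE 0.08, adjusted p = 3.1e-07), and Ro25 minus vehicle was -0.41 (adjusted p = 0.323). Immediate early genes are the first to be transcribed after a burst of activity. Of 29 measured, 6 were lower with AP5, 6 were higher and 17 did not pass the test (41.4% called, against 6.06% of all genes tested). Their median was -0.08 against 0.01 for all genes, but 0.17 under the fixed slide block. With the log ratios of all arrays brought to 1 spread, 3 of the 29 were called higher and 2 lower. Besides Nr4a1, the lower members in the main fit were Arc (-0.83), which regulates AMPA receptor traffic, Egr4 (-0.80), Npas4 (-0.63), Nr4a2 (-0.51) and Dusp1 (-0.31, adjusted p = 0.0311). The AP5 and Ro25 arrays overlapped for Nr4a2 and Dusp1. Npas4, a calcium-dependent transcription factor of inhibitory synapse genes, was well above background on 1 of the 5 AP5 arrays and on all 5 Ro25 arrays, so the size of its difference is uncertain. Fos was at -0.45 (adjusted p = 0.175) and Egr1 at -0.38 (adjusted p = 0.116).

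The higher members of the same list are also known from stress responses. Gadd45g, a growth-arrest and DNA-damage gene, was at 0.05, -0.02, 0.11, 0.20 and 0.23 with AP5 and at -0.75, -0.62, -0.67, -0.60 and -0.69 with Ro25. No array of one group came within 0.5 of the other group, and the difference was 0.78 (SE 0.05, adjusted p = 5.82e-08), or 1.72-fold. Gadd45b (0.69), Atf3 (0.68), Jun (0.45), Klf4 (0.33) and Jund (0.32) were the others. Gadd45g was at -0.69 ± 0.06 (SD, n = 5) with vehicle, next to its Ro25 level.

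**Figure D2:**
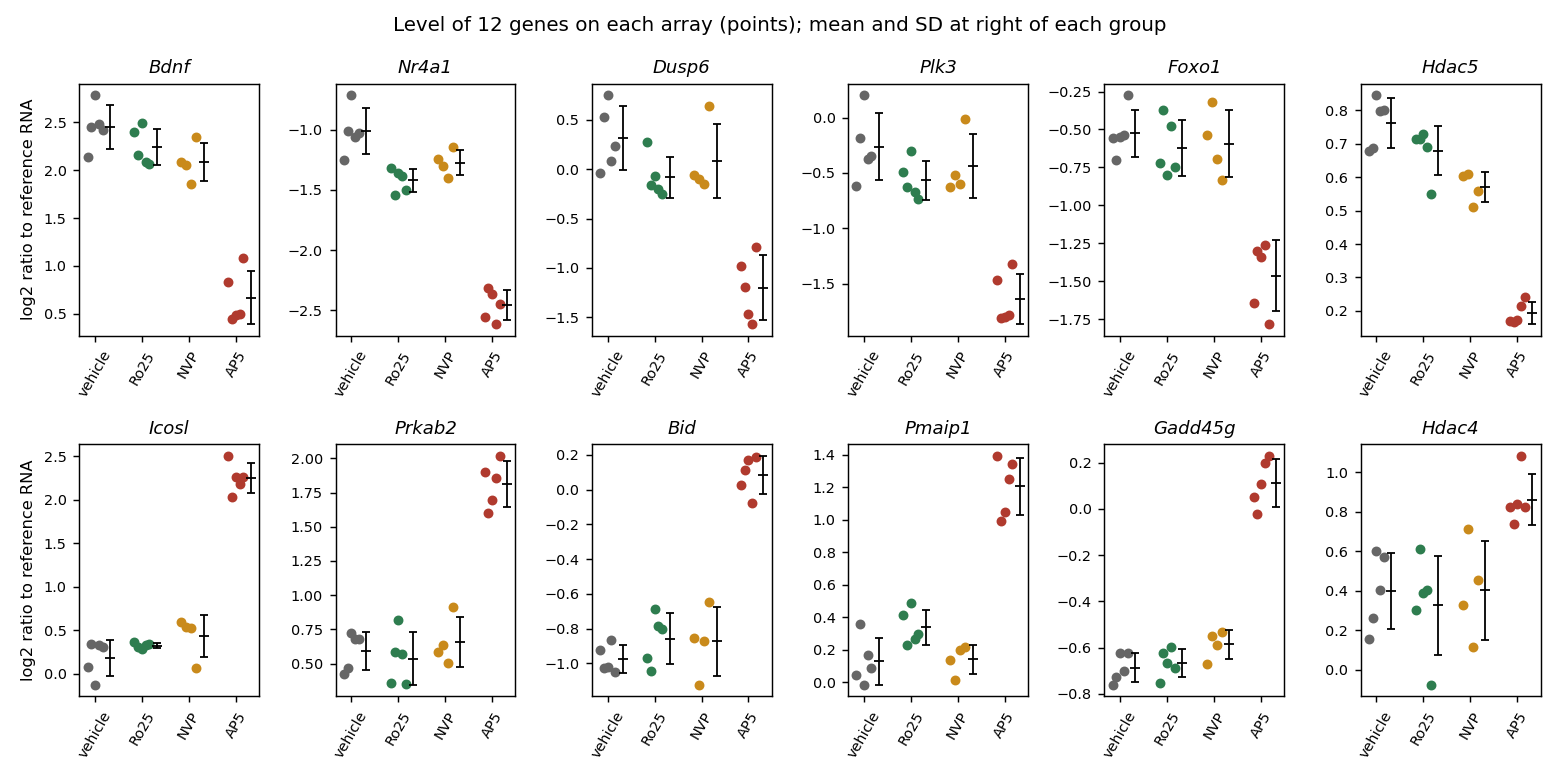
Log2 ratio to the reference RNA of 12 genes on every array of the 4 groups, with the mean and SD to the right of each group's points (n = 5, and 4 for NVP). In each panel the AP5 points lie apart from the Ro25 points, lower in the upper row and higher in the lower row.

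Of 27 later activity-regulated genes, 9 were lower with AP5, 2 higher and 16 did not pass (40.7% called, against 6.06% of all genes tested). Their median was -0.15 (0.13 with slide as a fixed block). With log ratios brought to 1 spread, 6 of the 27 were called lower and 0 higher. Plk3, a polo-like kinase, was at -1.47, -1.82, -1.81, -1.79 and -1.33 with AP5 and at -0.50, -0.63, -0.30, -0.68 and -0.74 with Ro25. The groups were separate, and the difference was -1.07 (SE 0.15, adjusted p = 1.1e-04). The LIM-domain transcription regulator Lmo4 was also at -1.07 (SE 0.11, adjusted p = 6.47e-06), although its green signal differed too, by 0.18. The inducible cyclooxygenase Ptgs2 was at -0.86, the clock gene Per2 at -0.79 (0.02 at its other probe), the G-protein regulator Rgs2 at -0.67 (-0.16 at its other probe), Trib1 at -0.40, Nrn1 (neuritin) at -0.39 and Bcl6 at -0.30. Nptx1, a neuronal pentraxin, and Errfi1, an inhibitor of the EGF receptor, were both 0.36 higher.

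Of the 26 gene lists examined, that of genes that feed back on the ERK pathway had the largest share of members called. Of 13 measured members 7 were lower with AP5 (53.8% called, against 6.06% of all genes tested), 0 were higher and 6 did not pass. The median was -0.37 against 0.01 for all genes. With the log ratios of all arrays brought to 1 spread, 5 were called lower. Dusp6, a phosphatase that removes the activating phosphates of ERK, was at -0.98, -1.20, -1.46, -1.57 and -0.78 with AP5 and at 0.27, -0.16, -0.07, -0.20 and -0.25 with Ro25. All AP5 arrays were below all Ro25 arrays, and the spread was wide with AP5 (SD 0.33, n = 5). The difference was -1.11 (SE 0.18, adjusted p = 6.07e-04). The Ras-ERK inhibitor Spred2 ran from -0.88 to -0.59 with AP5 and from -0.01 to 0.27 with Ro25, a difference of -0.91 (SE 0.09, adjusted p = 2.19e-06). Phlda1 was at -0.88, Dusp4 at -0.77, Spry2 at -0.54 (adjusted p = 0.0446) and Dusp7 at -0.37. The transcription factor Etv5 was at -0.23 (adjusted p = 0.0498, and -0.10 at its other probe). The AP5 and Ro25 arrays overlapped for Dusp4 and Spry2. The second probe of Spry2 gave 0.06, so its difference rests on 1 probe. Spry4, a sprouty inhibitor like Spry2, was at -0.48 (adjusted p = 0.129). The fixed slide block gave the list a median of -0.28 and called 0 members.

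Of the 6 cell death genes called, pro-apoptotic and anti-apoptotic together, 5 were higher with AP5, against 67.8% of all called genes. The anti-apoptotic Cflar was 1 of the 5. Of 23 measured pro-apoptotic genes 4 were higher with AP5 (17.4% called, against 6.06% of all genes tested), 0 lower and 19 did not pass. Their median was 0.04 (-0.01 with log ratios brought to 1 spread and with slide as a fixed block). Bid, a BH3-only protein that links death receptors to mitochondria, was at 0.03, 0.11, 0.17, -0.08 and 0.19 with AP5 and at -0.97, -1.04, -0.69, -0.78 and -0.80 with Ro25. Its groups did not overlap, and the difference was 0.94 (SE 0.08, adjusted p = 7.72e-07), with a green signal 0.08 higher on AP5 arrays. Pmaip1, the gene of the BH3-only protein Noxa, ran from 0.99 to 1.39 with AP5 and from 0.23 to 0.49 with Ro25, a difference of 0.86 (SE 0.08, adjusted p = 2.19e-06). The apoptosome scaffold Apaf1 was at 0.49 (SE 0.09), with its 3 probes between -0.04 and 0.49. Bbc3, which encodes the BH3-only protein Puma, was at 0.42 (SE 0.11, adjusted p = 0.0344). Its lowest AP5 array (1.193) lay barely above its highest Ro25 array (1.192). Bax, the pore-forming effector, was at -0.01 (SE 0.05, 95% interval -0.12 to 0.10). Of 9 anti-apoptotic genes, Cflar, an inhibitor of caspase 8, was at 0.73 (adjusted p = 0.045) with overlapping groups and 6 probes between -0.08 and 0.73, and Bcl2l1, which encodes Bcl-xL, was at -0.20 (SE 0.05, adjusted p = 0.0278) with 3 probes between -0.20 and -0.02. Each of these 2 calls (22.2% of the 9 genes, against 6.06% of all genes tested) was lost when any of several arrays was left out. Bcl2l1 lost its call without AP5 1, AP5 2, Ro25 1, Ro25 2 or Ro25 3 (adjusted p = 0.051 to 0.0825), and Cflar without any one array other than AP5 3, AP5 4 and Ro25 3 (adjusted p = 0.0572 to 0.124). Bcl2 was at -0.17 (adjusted p = 0.33) and Mcl1 at 0.10 (adjusted p = 0.575).

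The FOXO factors drive several death and stress genes when PI3 kinase signalling is low. Foxo1 was at -1.64, -1.30, -1.34, -1.26 and -1.78 with AP5 and at -0.72, -0.37, -0.80, -0.47 and -0.75 with Ro25. It was lower on every AP5 array, by 0.84 (SE 0.12, adjusted p = 1.47e-04), and its other probe gave -0.65. In the same list of 14 genes 4 were higher: Pik3ip1, a negative regulator of PI3 kinase (0.61, and 0.11 at its other probe), the stress gene Gadd45a (0.57), the regulatory subunit gene Pik3r1 (0.40) and Foxo6 (0.23). The list median was 0.09, and 9 members did not pass. The share called was 35.7%, against 6.06% of all genes tested.

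Class IIa histone deacetylases moved in both directions. Hdac4 was at 0.82, 0.74, 0.84, 1.08 and 0.83 with AP5 and at 0.30, 0.61, 0.39, 0.40 and -0.08 with Ro25. The lowest AP5 array lay above the highest Ro25 array by a small margin, and Ro25 5 and AP5 4 stood farthest apart. The difference was 0.54 (SE 0.12, 95% interval 0.28 to 0.79, adjusted p = 0.0116), or 1.45-fold, at a probe at chr1:93763383-93763442 in mm8. Hdac5 went the other way, from 0.17 to 0.24 with AP5 and from 0.55 to 0.73 with Ro25, a difference of -0.49 (SE 0.05, adjusted p = 1.99e-06). Hdac9 was at -0.91 (SE 0.21, adjusted p = 0.013) with overlapping groups, and its 3 probes lay between -0.91 and -0.17. Mef2d, a transcription factor bound by these deacetylases, was at 0.32 (SE 0.08, adjusted p = 0.0208), its 3 probes ranging from -0.05 to 0.32, and Mef2c was at 0.14 (adjusted p = 0.8). Of the 15 deacetylases and MEF2 factors 2 were higher, 2 lower and 11 did not pass, with a median of 0.00 to 2 decimals. The share called was 26.7%, against 6.06% of all genes tested.

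The subunits of the NMDA receptor differed little. Of 7 NMDA receptor subunits Grin1 alone was called (14.3%, against 6.06% of all genes tested). It was at 1.00, 1.24, 1.17, 1.49 and 1.14 with AP5 and 0.88, 0.85, 0.87, 0.91 and 0.73 with Ro25. The groups did not overlap, and the difference was 0.36 (SE 0.08, adjusted p = 0.0115), but it turned to -0.20 (adjusted p = 0.518) in the red channel alone. The green signal of Grin1 was 0.38 lower on AP5 arrays (adjusted p = 0.057). Grin2a was at 0.00 (95% interval -0.23 to 0.23), and Grin2b, which encodes GluN2B, was at 0.07 (95% interval -0.26 to 0.39) with 5 probes between 0.01 and 0.12. Neither difference exceeded the spread between arrays.

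Synaptic and channel genes had positive medians that did not carry over to the red signal. The median was 0.18 for 17 AMPA and kainate receptor genes. Of these, Grik4 (0.35), Gria2 (0.26) and Cacng4 (0.23) were higher (17.6% called, against 6.06% of all genes tested). Gria2, the AMPA receptor subunit that limits calcium entry, lost its call without AP5 1, Ro25 2, Ro25 4 or Ro25 5 (adjusted p = 0.0522 to 0.0621). It was 0.15 for 13 GABA-A receptor subunits and 0.11 for 25 presynaptic genes, with 0 called in either list, and the members with the smallest p were Gabra5 (0.16, adjusted p = 0.192) and Bsn (0.27, adjusted p = 0.0546). In the red channel alone the 3 list medians were -0.00, -0.05 and -0.05. After scaling the log ratios to 1 spread, the same 3 lists had larger medians than in the main fit (0.32, 0.38 and 0.35). The fixed slide block put them at 0.29, 0.24 and 0.15. The shift of these lists thus depended on the measure and the scaling, and the cause was not tested. Of 23 postsynaptic genes 1 was called (4.35%), the adhesion molecule Lrrtm1, higher by 0.56 (SE 0.14, adjusted p = 0.0252). Of 29 voltage-gated channels 1 was called (3.45%), the potassium channel Kcna4, lower by 0.86 (SE 0.16, adjusted p = 0.00217). Both shares were below the 6.06% of all genes tested. Lrrtm1 lost its call without AP5 1, AP5 3, Ro25 2 or Ro25 5 (adjusted p = 0.0577 to 0.0776). The green signal of Kcna4 was 0.28 lower on AP5 arrays.

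The differences shifted with a gene's mean ratio to the reference. The median difference was 0.14 for the 1097 genes with a mean log2 ratio over 3, 0.07 for 2836 genes between 1 and 3, 0.01 for 11540 genes between -1 and 1, -0.04 for 3190 genes between -3 and -1 and -0.06 for 557 genes below -3. The share of genes called ran the same way: 83 of the 1097 genes over 3 were higher and 11 lower, against 6 higher and 11 lower of the 557 below -3. With the log ratios of all arrays brought to 1 spread, 485 genes were called, 469 of them among the 1164.

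**Figure D3:**
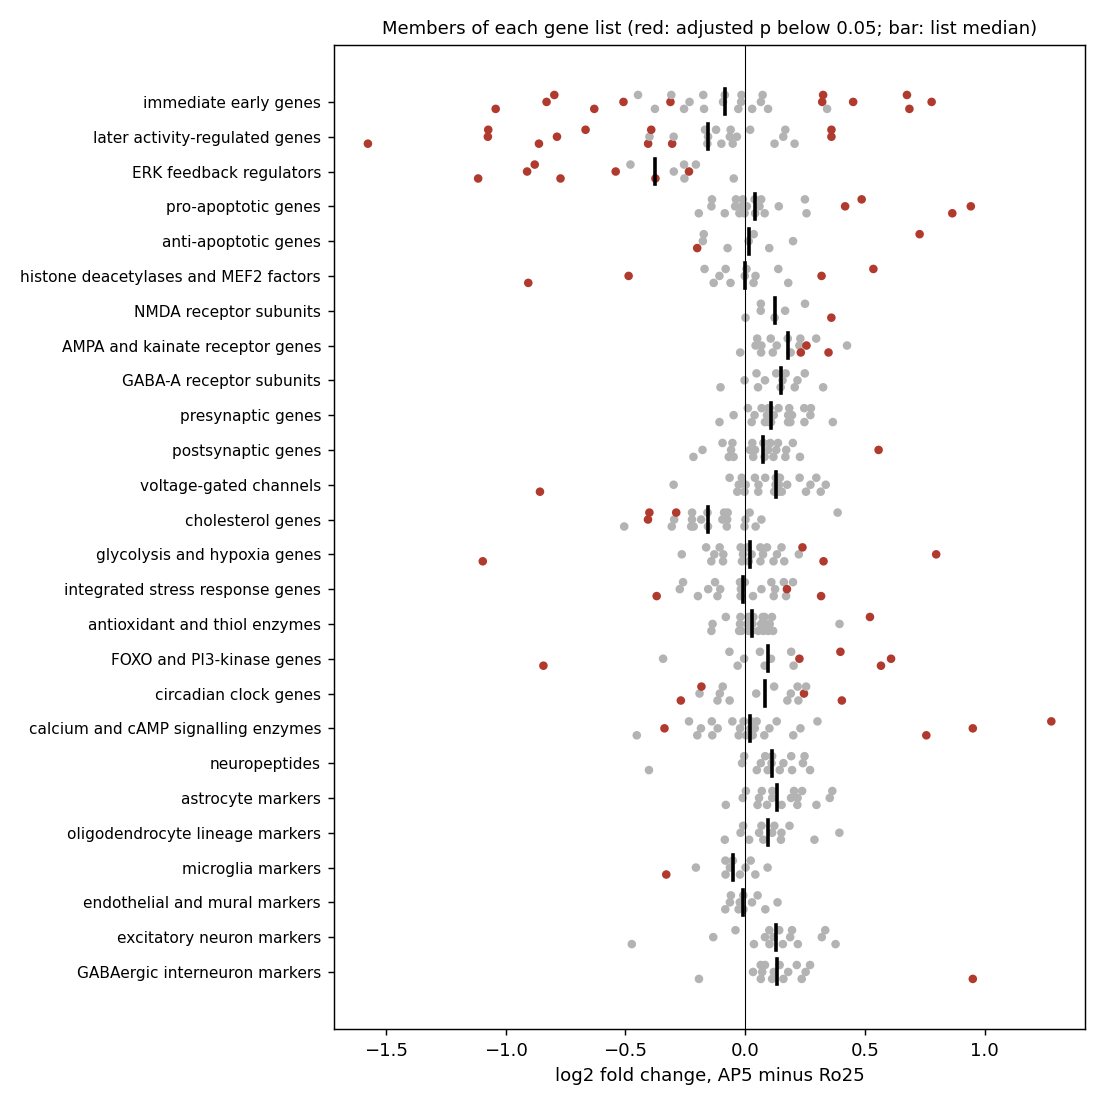
Log2 fold change (AP5 minus Ro25) of every measured member of 26 gene lists, 1 list a row, with members called at an adjusted p below 0.05 in red and the list median as a black bar. ERK feedback regulators have the lowest median (-0.37), and most synaptic and marker lists have medians above 0 with few red points.

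Of the metabolic, stress and clock lists, the share of members called ran from 3.7% of the antioxidant and thiol genes to 25% of the clock genes, against 6.06% of all genes tested. Of 24 cholesterol genes 3 were lower and 0 higher, with a median of -0.16 (0.07 with slide as a fixed block). Msmo1 (-0.41) and Idi1 (-0.40), enzymes of sterol synthesis, were among them. Of 26 glycolysis and hypoxia genes, Ankrd37, a target of hypoxia-inducible factor, was at -3.24, -3.29, -3.14, -3.20 and -3.12 with AP5 and at -2.22, -1.90, -1.99, -2.20 and -2.22 with Ro25. It was about a log2 unit lower on every AP5 array, by 1.09 (SE 0.09, adjusted p = 2.81e-07), whereas Pfkfb3, which makes an activator of glycolysis, was higher by 0.80 (SE 0.17; 3 probes between 0.23 and 0.80), Ndrg1 by 0.33 and the neuronal glucose transporter Slc2a3 by 0.24. The list median was 0.02. Among 22 integrated stress response genes Ddit3, which encodes CHOP, was at 0.32, Aars at 0.17 (-0.06 at its other probe) and Vldlr at -0.37, and among 27 antioxidant and thiol genes Txnip was the 1 called, at 0.52 (0.11 at its other probe). Of 16 clock genes, Tef (0.40) and Nr1d2 (0.25) were higher and Cry2 (-0.27) and Arntl (-0.18) lower. The 4 probes of Tef ranged from 0.03 to 0.40, and Cry2 was at 0.03 in the authors' processed table, where another probe stands for it. Of 16 neuropeptide genes 0 were called, and Scg3, a secretogranin, had the smallest p (0.25, adjusted p = 0.0562).

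Of 27 calcium and cAMP signalling enzymes 3 were higher with AP5, 1 was lower and 23 did not pass. The share called was 14.8%, against 6.06% of all genes tested, and the median was 0.02. Prkab2, a regulatory subunit of the energy sensor AMPK (probe at chr3:97758325-97758384, mm8), was at 1.90, 1.60, 1.69, 1.85 and 2.02 with AP5 and at 0.36, 0.58, 0.82, 0.57 and 0.35 with Ro25. The groups were far apart, by 1.28 (SE 0.10, adjusted p = 2.99e-07), and vehicle at 0.59 ± 0.14 (SD, n = 5) lay with Ro25. Camkk1, a kinase that activates CaM kinases, was higher by 0.76 (SE 0.07, adjusted p = 6.26e-07), with a green signal 0.18 higher on AP5 arrays. Nos1, the neuronal nitric oxide synthase and a marker of some interneurons, was higher by 0.95 (SE 0.10, adjusted p = 9.46e-06), but its probes ran from 0.05 to 0.95 and the authors' processed table, through another probe, gave 0.05 (adjusted p = 0.676). Nfatc4, a calcineurin-dependent transcription factor, was lower by 0.34 (SE 0.07), and by 0.17 at its other probe. Prkab2, Camkk1 and Nos1 were also called with slide as a fixed block, at 1.79, 0.90 and 1.48.

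The largest difference of all was that of Icosl, whose protein binds the co-stimulatory receptor ICOS of T cells (probe at chr10:77482595-77482654, mm8). It was at 2.50, 2.03, 2.26, 2.19 and 2.26 with AP5 and at 0.36, 0.31, 0.28, 0.33 and 0.34 with Ro25. The AP5 arrays were all above 2 and the Ro25 arrays all below 0.4, a difference of 1.92 (SE 0.11, 95% interval 1.70 to 2.14, adjusted p = 4.76e-09) or 3.79-fold. The green signal of Icosl was 0.17 higher on AP5 arrays. Vehicle was at 0.19 ± 0.21 (SD, n = 5), and the blocked fit gave 1.66 (adjusted p = 0.0298).

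Among genes with an official symbol and separate groups, the next by size were Prkab2 (1.28), Upf2 (1.12), a factor of nonsense-mediated decay, the long noncoding transcript 2610035D17Rik (1.10), Tmem114 (1.08), the glycosyltransferase B3galt5 (1.06), the metalloprotease Adamts8 (1.03), Nos1, Bid and the caveolar protein Cavin2 (0.94). The probes of Upf2 disagreed, from 0.04 to 1.12 over 4 probes, and in the authors' processed table, where another probe stands for it, it was at 0.05. On the lower side after Bdnf and Dusp6 came Ankrd37, the transcription factor Cebpd (-1.09), Plk3, Lmo4, the small GTPase Rasl11a (-1.07), Nr4a1, Tmem200a (-1.01) and the metalloprotease Adamts1 (-0.94). Of the genes named in this ranking, Cebpd varied most within AP5, from -3.05 on AP5 5 to -1.64 on AP5 2. Of the 85 higher genes 28 had another probe, whose difference had the same sign and at least 50% of the size for 17, and of the 52 lower genes 24 had one, which did so for 15.

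The fixed slide block estimates AP5 from AP5 5 alone and Ro25 from Ro25 1 and 4 alone. It ended nearly every call in the 7 lists of activity, death, FOXO and deacetylase genes described above. Of the 45 genes called there without it, 44 had a value with it (Pik3ip1, missing on AP5 5, had none), and 43 of these lost their call. The direction was the same for 42 and turned for 2, Dusp1 (0.14, adjusted p = 0.747) and Dusp4 (0.35, adjusted p = 0.676). Bdnf was at -0.93 (SE 0.31, adjusted p = 0.245), Nr4a1 at -0.999 (SE 0.23, adjusted p = 0.13), Dusp6 at -0.44 (SE 0.42, adjusted p = 0.616) and Plk3 at -0.40 (SE 0.36, adjusted p = 0.594). Bid was at 1.04 (SE 0.23, adjusted p = 0.115), Pmaip1 at 0.95 (SE 0.20, adjusted p = 0.104) and Foxo1 at -1.15 (SE 0.28, adjusted p = 0.156). Hdac4 was at 0.83 (SE 0.30, adjusted p = 0.274) and Hdac5 at -0.43 (SE 0.12, adjusted p = 0.195). Of the 44, Gadd45g alone (0.99, adjusted p = 0.0104) was called in this fit too, and outside these lists 2610035D17Rik, Tmem114 and Cavin2 were.

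Single arrays set how close the groups came. Among the 137 genes AP5 5 was the AP5 array nearest to Ro25 for 45, of which 31 were among the 52 lower genes, and Ro25 3 was the Ro25 array nearest to AP5 for 51, of which 45 were among the 85 higher genes. These were the arrays of their groups lowest in astrocyte markers. Among the 85 higher genes AP5 2 was the AP5 array nearest to Ro25 for 34 and AP5 5 for 14. Among the 52 lower genes Ro25 5 was the Ro25 array nearest to AP5 for 18 and Ro25 3 for 6. AP5 2 and Ro25 5 were the arrays of their groups highest in astrocyte markers (4.21 and 4.00). Leaving out any 1 of the 10 arrays gave 870 to 1114 called genes and 123 to 145 at 1.5-fold. Without the array lowest in astrocyte markers of each of the 4 groups, a setting added after seeing the data, 1077 genes were called, 870 of them among the 1164, and 135 of the 137 were still called.

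Transcripts of other cell types were measured beside those of neurons. The neuronal markers Rbfox3 (3.64 with Ro25), Slc17a7 (3.34), Camk2a (3.06) and Gad1 (5.33) were all far above the reference, and so were the astrocyte markers Gfap (5.23) and Slc1a2 (8.45) and the oligodendrocyte lineage marker Olig1 (6.44). The mean of 18 astrocyte markers ran from 2.88 to 4.21 with AP5 and from 2.72 to 4.00 with Ro25, so the groups overlapped, and 0 of the 18 were called. The member with the smallest p was Slc1a2 (0.20, adjusted p = 0.148), which stood at -0.31 with slide as a fixed block and at -0.011 in the red channel alone. Of 14 oligodendrocyte lineage markers 0 were called, and Mog was well above background on 1 of the 10 arrays. Of 11 microglia markers 1 was called (9.09%, against 6.06% of all genes tested). This was Fcer1g, lower with AP5 by 0.33 (SE 0.09, adjusted p = 0.0281), and its other probe gave -0.06. Its call was lost without any one of AP5 2, 3 and 4 and Ro25 3, 4 and 5 (adjusted p = 0.0527 to 0.0821). With the fixed slide block Fcer1g was at 0.21. The mean of the 11 ran from -2.81 to -2.56 with AP5 and from -2.78 to -2.57 with Ro25. Of 11 endothelial and mural markers 0 were called, and the defining gene Vtn, with red well above background on 1 of the 10 arrays, gets no fold. Excitatory neuron markers had 0 of 16 called, with means from 2.95 to 3.16 with AP5 and from 2.79 to 3.07 with Ro25. GABAergic interneuron markers had 1 of 16 called, Nos1 (6.25%, against 6.06% of all genes tested). Their means ran from 3.13 to 3.32 with AP5 and from 2.97 to 3.14 with Ro25. What part these shifts had in the gene differences was not tested, and in bulk RNA fewer cells of a type and less RNA per cell cannot be told apart. With the astrocyte mean as a covariate 2219 genes were called, all of the 1164 included.

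**Figure D4:**
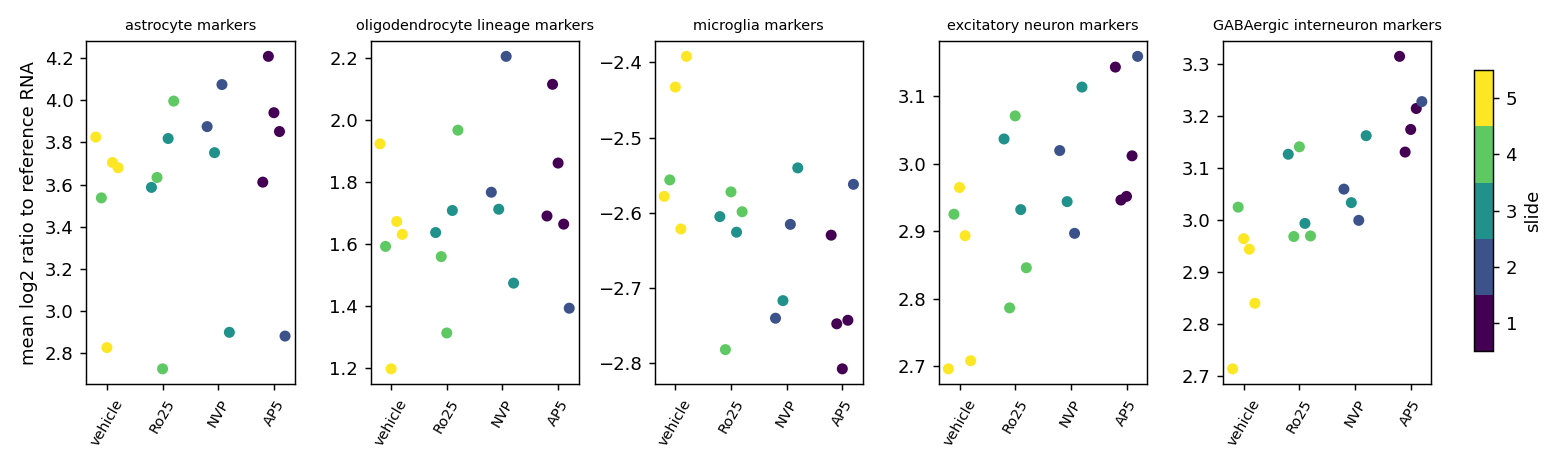
Mean log2 ratio to the reference RNA of 5 marker lists on each array, by group and coloured by slide. The astrocyte panel shows 1 low array in each group (2.72 to 2.90), and the AP5 and Ro25 points overlap in every panel, by the least in the GABAergic one.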

How the data were processed

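RNA of treated neurons was measured on 2-colour Agilent mouse arrays whose 45018 features include 43379 gene spots of 41174 probes. The scanner intensity of each spot was deposited as extracted by Feature Extraction 9.5.3.1, per the file headers, whereas version 11.0 of Agilent Feature Extraction stands in the submitters' processing notes. The deposited log10 ratio was background-subtracted and dye-normalized, per the file headers. The authors' processed table holds log2 values of 20674 probes, made by steps not given in the sources used here. Its columns correlated with the ratios computed here at 0.999 or above and had medians from 0.0345 to 0.0478, and its centring is unknown.

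The analysis started from the deposited mean intensity. Spots that the extraction software marked as non-uniform or as outliers were removed, 117 to 266 per array and 1642 on vehicle 5. The background was corrected with normexp (offset 50), and loess within each array normalized the log2 ratios (weight 0 for controls). The median red signal was 135.5 to 177.8 per array and the median green signal 88.7 to 106.8, with red well above background for 24943 to 28548 probes and no saturated gene spot. No array duplicated another (at most 0.0161% identical red signals). The number of arrays limits the precision. Probes were kept with red well above background on at least 4 arrays (28663 probes), and the brightest probe stood for a gene (19220 genes, 6731 with several). Names came from a RefSeq table of GRCm38.p6 for 23374 probes by accession, 6733 by symbol and 2919 by synonym, and 8148 kept the name in the files. Promoter windows are RefSeq's, of the same assembly.

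Groups came from the sample titles. The comparison used limma 3.58.1 under R 4.3.3 (jsonlite 2.0.0, statmod 1.5.0 and version 1.17.8 of data.table) in 1 model over all 19 arrays, two-sided, with Benjamini-Hochberg adjustment over all genes tested, a threshold of 0.05 and a size of 1.5-fold. Adjusted p-values are all from this limma model. The scripts were tested on simulated data. Named genes were the 10 largest differences each way among called genes that had an official symbol and non-overlapping groups, and up to 2 called members of each of 26 lists (or the member with the smallest p); other members and genes were named after their values were seen. Members, lists and rules were chosen with earlier results of these data known. Alternatives changed the arrays, slide, replicate block, scaling, measure, background correction, filter, probes and marker covariate. No annotation of mm8 was used, so whether a probe lies in a coding part or a UTR is not stated. One result is not reported here.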

Additional observations from a re-analysis of the deposited data

Results flagged for a closer look

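In the AP5, Ro25 and vehicle groups, each gene named by the rule and reported here and each marker mean were examined, as 174 groups of 5 arrays. Chance alone gives a gap of more than Dixon's limit in about 1 in 20 groups. Such a gap set 1 array apart from the others in 14 of the 174. In the Ro25 group these were B3galt5 on Ro25 2 (5.639, others 5.95 to 6.06), Gabra5 on Ro25 2 (3.073, others 3.34 to 3.42), Scg3 on Ro25 2 (4.786, others 4.97 to 5.04), the microglia marker mean on Ro25 2 (-2.782, others -2.63 to -2.57), Hdac5 on Ro25 5 (0.5497, others 0.69 to 0.73), Msmo1 on Ro25 5 (1.112, others 0.77 to 0.86), Vtn on Ro25 1 (0.08604, others 0.14 to 0.16) and the endothelial and mural marker mean on Ro25 1 (-1.322, others -1.31 to -1.30). With AP5 they were Hdac4 on AP5 4 (1.082, others 0.74 to 0.84) and Pfkfb3 on AP5 5 (0.5584, others 1.03 to 1.12). With vehicle they were Cebpd on vehicle 3 (-1.395, others -1.10 to -1.04), the astrocyte marker mean on vehicle 3 (2.824, others 3.54 to 3.83), Msmo1 on vehicle 1 (1.198, others 0.86 to 0.91) and Gadd45a on vehicle 2 (-2.289, others -2.36 to -2.34). The lower Ro25 5 value of Hdac5 is nearer to AP5 than the other Ro25 values are, and AP5 4 of Hdac4 is farther from Ro25 than the other AP5 arrays are.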

How the results depend on the processing

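The fixed slide block gave 20 called genes and 20 at 1.5-fold, and it took AP5 from AP5 5 alone. The count of called genes was 485 with log ratios brought to 1 spread, 436 with normexp fitted to all spots (84 at 1.5-fold) and 2219 with the astrocyte mean as a covariate, and 307 genes reached 1.5-fold with the deposited Agilent log ratio. Leaving out each array in turn gave 870 to 1114 called genes and 123 to 145 at 1.5-fold. The other settings gave 815 to 1740 called genes and 109 to 195 at 1.5-fold. The direction of 2 genes turned in the red channel alone beside that of Grin1 (-0.20, adjusted p = 0.518): Gabra5 (-0.074, 0.719) and Slc1a2 (-0.011, 0.975). No direction is read for Vtn, mostly not well above background, whose fitted value also changed sign there (to 0.025, 0.913). It turned with the fixed slide block for Scg3 (-0.10, 0.724), Slc1a2 (-0.31, 0.327), Mbp (-0.092, 0.809) and Fcer1g (0.21, 0.591), and in the authors' table, through another probe, for Cry2 (0.031, 0.922). The other named genes kept their direction in all 24 settings. Icosl, Prkab2, 2610035D17Rik, Tmem114, Gadd45g and Camkk1 were called in every one, while Bdnf reached an adjusted p of 0.245, Dusp6 0.616, Hdac4 0.274 and Hdac5 0.195 at most. The cause of these changes was not tested. Departures from a gene's usual level, not the levels themselves, were correlated across genes between AP5 and Ro25 arrays. For same-numbered arrays these correlations ran from -0.62 to 0.45, and the main fit used no pairing. The highest correlation was 0.83, between AP5 5 and Ro25 3, the arrays of their groups lowest in astrocyte markers. Whether arrays of the groups shared a culture cannot be read from these correlations and was not tested. The replicate block gave 894 called genes and 131 at 1.5-fold.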

Other observations

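Several receptor and channel genes outside the lists were among the 137, and they are named after their values were seen. Of receptors coupled to G proteins, Oprl1 (nociceptin receptor) was 0.72 higher with AP5 than with Ro25, Hrh1 (histamine) 0.64, Crhr2 (corticotropin-releasing hormone) 0.62, Drd5 (dopamine) 0.62 and Htr1a (serotonin) 0.61. Npy1r (neuropeptide Y) was at -0.81, Cckbr (cholecystokinin) at -0.63 and Prokr2 (prokineticin) at -0.59. For all 8 the AP5 and Ro25 arrays did not overlap, as for 125 of the 137. The potassium channel genes Kcnv1 (-0.77) and Kcnk6 (-0.75) were lower as well.

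Relatives of the small GTPase Ras differed in direction. Rasl11b (0.86), Rasl10a (0.71) and Rasd1 (0.70) were higher with AP5, while Rasl11a was lower (-1.07). Kdr, a receptor of vascular endothelial growth factor, was 0.90 higher, Acan, the core protein of a cartilage and perineuronal net proteoglycan, 0.80 higher, and Slc16a1, a lactate and pyruvate transporter, 0.77 higher. The groups did not overlap for any of these 7 genes, as for 125 of the 137 genes called at 1.5-fold.

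With the fixed slide block, 3 genes were called that the fit without it did not call: Mmp28 (1.13 against 0.18), Gimap6 (1.02 against 0.13) and Il20rb (0.65 against 0.11). In the same fit the median of the 18 astrocyte markers was -1.59, and AP5 5 was the AP5 array lowest in them.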
